A study of Mus musculus with 15 samples.

Results

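Primary bone marrow-derived macrophages (BMDM) expressed 32 genes that stayed low in every other library of this study. The genes were picked from the measured levels themselves: FPKM (reads per length of transcript and size of library) of at least 5 in all 3 BMDM libraries and under 1 in each of the 12 other libraries. Of 17030 genes in the table, 7610 met the minimum in BMDM and 43 of these also met the ceiling. Symbols with any of 15 starts that mark large families, such as chemokines, CD antigens and integrins, were left out, which removed 11 and left 32. Swapping the group that had to be high, the same rule gave 101 genes for CAR macrophages, 49 for progenitor cells and 0 each for control-CAR and Hoxb8 macrophages. The rule held control-CAR and Hoxb8 macrophages each under the ceiling for the other. Only 2.62% of 11793 genes differed between them (edgeR, adjusted p under 0.05). Their counts of 0 therefore say little about either group, and the numbers are not comparable across groups.

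The study measured polyadenylated RNA of mouse bone marrow cells in 5 groups of 3 libraries. BMDM, Hoxb8 macrophages and progenitor cells were labelled wild type and untreated, CAR macrophages carried CAR expression and were CAR treated, and control-CAR macrophages carried control-CAR expression and were control-CAR treated. CAR commonly stands for a chimeric antigen receptor, which is built to direct immune cells to a target, and Hoxb8 is a homeobox factor that, when forced on, holds myeloid progenitors in a dividing state. The labels name no construct, dose, culture time, age or strain. They do not tie replicates to separate animals or cultures, so p-values measure only the spread between these libraries, which may be technical.

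BMDM are commonly grown from whole marrow with the growth factor M-CSF. Macrophages take up lipoproteins, dying cells and microbes through scavenger and pattern recognition proteins and break them down in lysosomes. A bulk culture of marrow can also hold dendritic cells and lymphocytes, and in bulk RNA fewer cells of a type and less RNA per cell cannot be told apart. The labelled cell type was checked against a list of resident and M-CSF macrophage markers: 29 of 41 listed genes had a mean of at least 1 FPKM in BMDM, against 17 in the CAR, 15 in the Hoxb8 and 13 in the control-CAR macrophages, and 6 in progenitors. Total estimated counts ran from 16962839 to 19221681 per library.

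The regions just before the start sites are shown for 5 of the genes: Cck, the most abundant one, 3 that hold a PU.1 site (PU.1 is the ETS factor that macrophages depend on), and Apol7c, which holds an overlapping pair of interferon response elements. Sequences are the 250 bases upstream of the start site of the promoter entry on GRCm38.p6, read 5′ to 3′ on the gene's strand. That start lay at the gene's 5′ end for Cck, Eng, Kmo and Rapgef5 and 20 bases inside the gene for Apol7c. Capitals mark matches, on either strand, to any of 12 motifs searched.

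Cck (chr9:121495695-121495944, minus strand): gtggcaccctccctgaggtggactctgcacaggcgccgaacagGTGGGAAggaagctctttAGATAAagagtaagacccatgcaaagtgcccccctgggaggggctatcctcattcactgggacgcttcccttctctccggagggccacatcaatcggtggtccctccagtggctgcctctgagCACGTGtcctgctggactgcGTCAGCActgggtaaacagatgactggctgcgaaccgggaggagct
Eng (chr2:32646345-32646594, plus strand): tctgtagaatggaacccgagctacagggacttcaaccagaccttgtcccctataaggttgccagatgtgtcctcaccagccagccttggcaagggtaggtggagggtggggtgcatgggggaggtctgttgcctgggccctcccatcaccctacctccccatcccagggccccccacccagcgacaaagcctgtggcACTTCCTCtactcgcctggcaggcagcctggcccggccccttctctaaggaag
Kmo (chr1:175631943-175632192, plus strand): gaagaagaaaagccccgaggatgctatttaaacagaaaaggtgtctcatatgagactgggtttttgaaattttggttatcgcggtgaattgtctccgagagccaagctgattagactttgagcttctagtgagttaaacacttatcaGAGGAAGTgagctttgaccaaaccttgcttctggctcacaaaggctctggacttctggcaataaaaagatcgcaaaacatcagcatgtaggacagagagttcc
Rapgef5 (chr12:117516276-117516525, plus strand): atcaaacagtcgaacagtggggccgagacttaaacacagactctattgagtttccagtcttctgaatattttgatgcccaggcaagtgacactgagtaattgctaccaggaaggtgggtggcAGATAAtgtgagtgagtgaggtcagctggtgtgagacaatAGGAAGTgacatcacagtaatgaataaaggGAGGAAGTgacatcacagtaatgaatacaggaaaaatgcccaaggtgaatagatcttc
Apol7c (chr15:77533316-77533565, minus strand): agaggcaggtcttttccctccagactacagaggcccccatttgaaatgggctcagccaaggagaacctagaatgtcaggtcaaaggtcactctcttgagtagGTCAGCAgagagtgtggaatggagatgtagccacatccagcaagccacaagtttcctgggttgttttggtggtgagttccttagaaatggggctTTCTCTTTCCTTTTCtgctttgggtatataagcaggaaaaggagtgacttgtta

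A promoter entry was present for 28 of the 32 genes, all but Smpdl3a, Scarf1, Galm and Ly6d. Its start lay inside the gene for some, by 488 bases for Dapk1, 410 for Plbd1 and 358 for Lipo3. For these genes the whole region lay within the gene. For Zc3h12d, Tifab and Tmeff1, at 147, 117 and 103 bases, part of it did. A smaller part did for Shisa8, Aif1, Jaml, Apol7c and Spib, at 33, 31, 30, 20 and 16 bases. The PU.1 motif GAGGAAGT was found in 3 of these 28 upstream regions (10.7%: Eng, Kmo and Rapgef5), against 2.44% of the 13478 genes with an entry and 2.98% of the 6210 with at least 5 FPKM in all BMDM libraries. In Rapgef5 the shorter ETS motif AGGAAGT occurred in addition, since a stretch of 26 bases that starts with it was present at both places, the longest repeat in any of the 28 regions. The interferon response element GAAANNGAA was found in 5 (17.9%: Aif1, Jaml, G0s2, Apol7c and Zc3h12d), against 6.50% of all entries. The other motifs were AGGAAGT for ETS factors in general (it lies within the PU.1 motif), TGANTCA for AP-1, TTCNNNGAA for GAS, CACGTG or CACATG for MITF and TFE factors, TTGCNNAA for C/EBP, TGCTGAC for MAF, AGATAA for GATA, GGGANTTCC for NF-kB, GTGGGAA for RBPJ and the TATAAA box. The AP-1 and GAS motifs were in 0 of the 28, against 5.19% and 6.17% of all entries. A match describes the letters alone.

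The upstream regions were poor in CpG. Their median ratio of observed to expected CpG was 0.406, against 0.658 over all entries and 0.758 over genes with at least 5 FPKM in BMDM, while the median GC content was 57.4%, 58.4% and 60.0%. A ratio of at least 0.6, a usual limit for CpG islands, was reached by 7 of 28 (25%: Sorl1, Dapk1, Jazf1, Ly86, Serpine2, Shisa8 and Tmeff1), against 56.6% of all entries and 72.1% of the genes high in BMDM. At the other end, Apol7c and Fam169b had no CpG in the 250 bases. For 24 of the 28, a short stretch after the start site was found in the early part of a GENCODE transcript. For Adam19, Ms4a4a, Spib and Dapk1 it was not found. The search did not compare the positions of the starts.

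**Figure D1:**
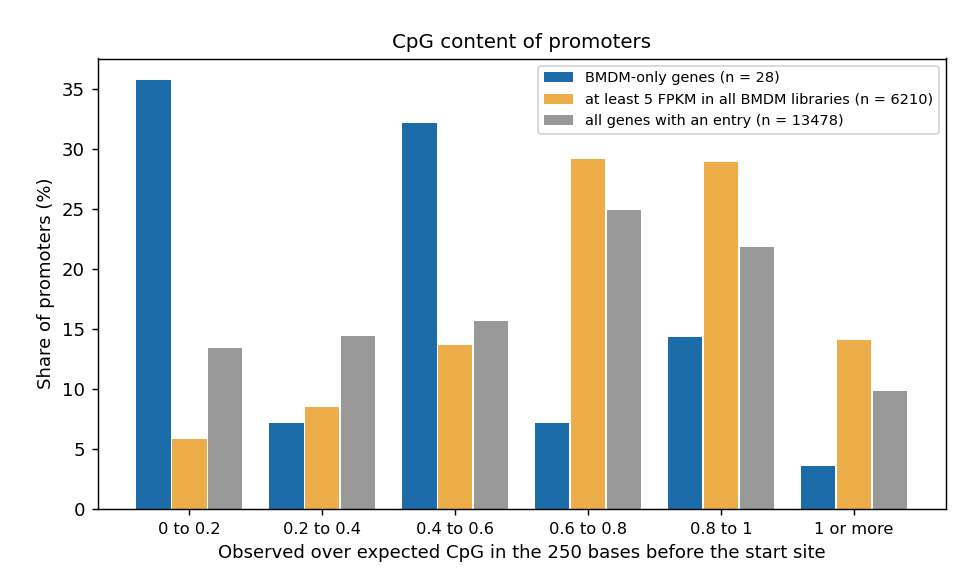
Bars give the share of promoters (%) in each range of the observed over expected CpG ratio of the 250 bases before the start site, for the BMDM-only genes with an entry, for genes with at least 5 FPKM in all BMDM libraries and for all genes with an entry. The BMDM-only genes fill the range from 0 to 0.2 with 35.7% of their promoters, against 5.85% of the genes high in BMDM.

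All 32 genes were protein coding and lay on 15 chromosomes. Each gene's nearest gene in the table on either side was examined, and 29 of 64 such neighbours (45.3%) had a mean of at least 5 FPKM in BMDM, against 46.3% of all genes. Only Tnfrsf13c and Shisa8 were neighbours of each other, on the minus strand of chromosome 15, with 11565 bases between their starts. Rtl8b lay next to Rtl8a on chromosome X, which missed the ceiling by reaching 1 FPKM in CAR replicate 3 and had 8.63 ± 0.37 FPKM in BMDM (SD, n = 3). Rtl8a is named here after its values were seen, as are the other genes outside the rule for named genes: Serpine2, Zc3h12d, the relatives of the 32 and the genes left out by symbol.

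The sum over the 32 genes was 688 ± 17.7 FPKM in BMDM (SD, n = 3). The other sums were 7.45 ± 0.42 for CAR, 1.54 ± 0.28 for Hoxb8 and 1.13 ± 0.15 for control-CAR macrophages, and 1.03 ± 0.17 for progenitors. These levels follow from how the genes were picked and are a description. What the rule did not set is where the remainder lay: CAR macrophages were the highest of the other groups for 21 genes, Hoxb8 macrophages for 4, progenitor cells for 4 and control-CAR macrophages for 0. The remaining 3 genes, Cck, Ly6d and Ly86, had a count of 0 in all 12 other libraries. The highest group was not counted over all low genes. More genes had a count in the CAR libraries (14740 to 14815) than in the control-CAR, Hoxb8 and progenitor libraries (12539 to 13160).

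**Figure D2:**
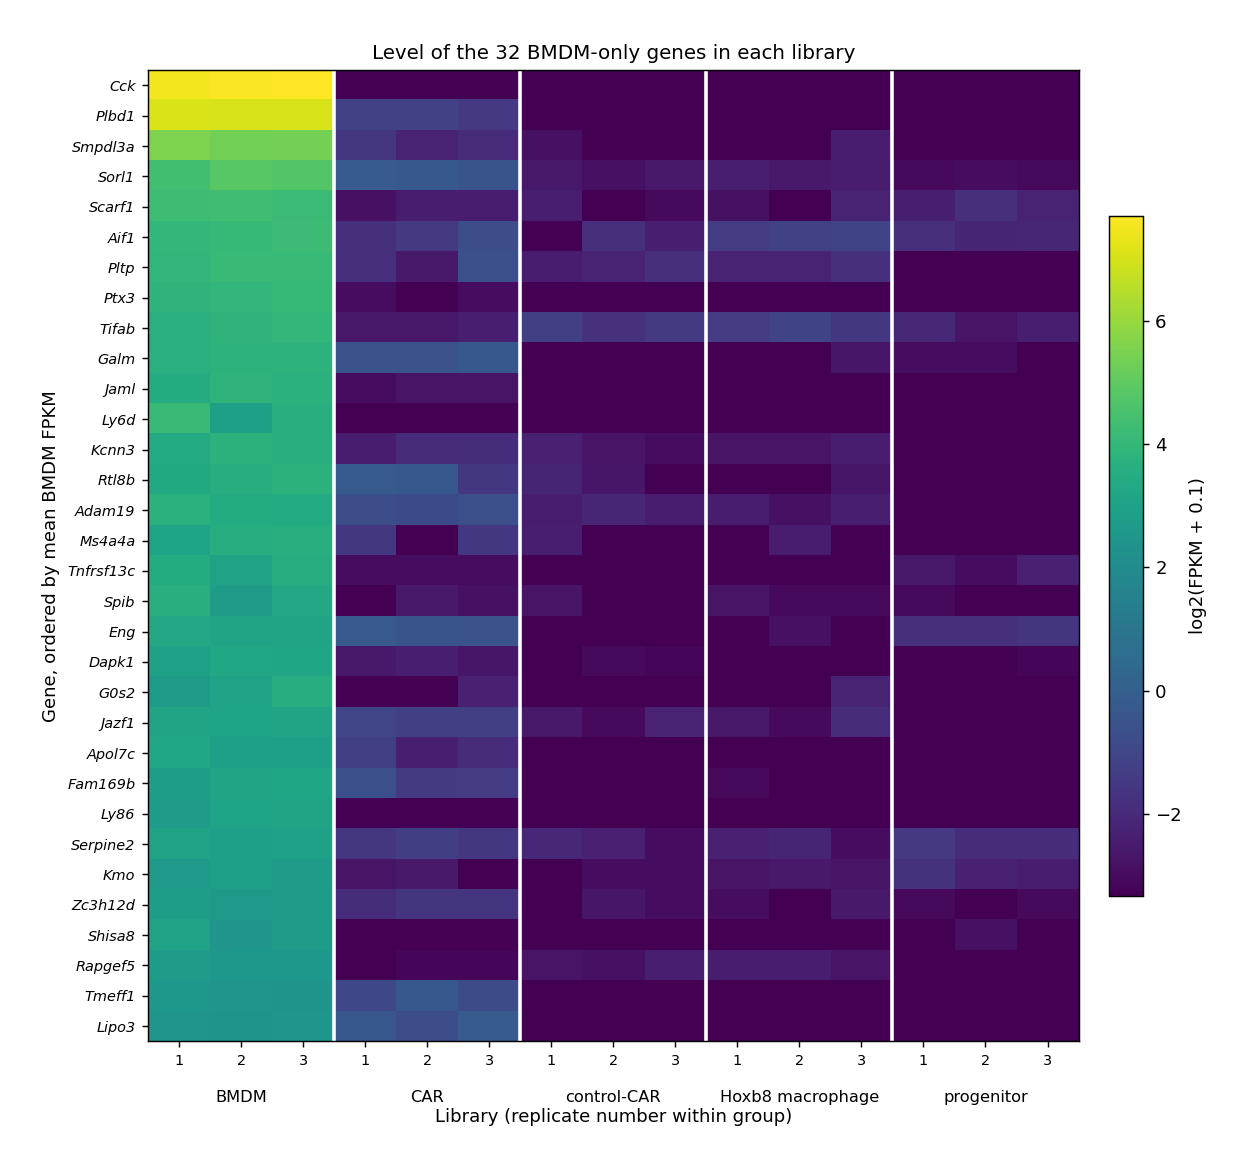
Colour gives log2(FPKM + 0.1) of each of the 32 genes (rows, ordered by mean BMDM FPKM) in each of the 15 libraries (columns, by group and replicate number). Beside the 3 bright BMDM columns, the CAR columns carry faint signal in genes such as Sorl1, Galm, Eng, Tmeff1 and Lipo3, and Cck, Ly6d and Ly86 are dark throughout.

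Genes of lipid handling, lysosomes and scavenging included several of the most abundant. Plbd1, a phospholipase B-like protein of lysosomes and granules, had 137, 133 and 129 FPKM in BMDM and 0.34, 0.34 and 0.26 in CAR macrophages, and no counts in the 9 other libraries. Its close relative Plbd2 was present in every group, with mean FPKM from 30.2 in progenitor cells to 75.9 in control-CAR macrophages. Smpdl3a, an acid sphingomyelinase-like phosphodiesterase, had 46.9, 40.6 and 41.6 FPKM in BMDM and at most 0.23 elsewhere. Its relative Smpdl3b did not share the pattern, with 138 ± 2.70 FPKM in BMDM, 139 ± 3.0 in CAR and 230 ± 10.4 in control-CAR macrophages (SD, n = 3). For both pairs the BMDM-only pattern thus belonged to 1 of 2 related genes.

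Sorl1, a sorting receptor that moves cargo between endosomes and the Golgi, had 20.5, 28.5 and 26.8 FPKM in BMDM. It was one of the closest to the ceiling, at 0.79, 0.71 and 0.63 in CAR macrophages and at most 0.09 elsewhere. Scarf1, a scavenger receptor for modified lipoproteins and dying cells, had 19.5, 19.8 and 17.9 FPKM in BMDM. Its relative Scarf2 was highest in CAR macrophages, at 3.42 ± 0.32 FPKM, and had 0.33 ± 0.05 in BMDM (SD, n = 3). Pltp, which transfers phospholipids between lipoproteins, had 15.2, 17.5 and 17.7 FPKM in BMDM, and G0s2, an inhibitor of the triglyceride lipase ATGL, had 6.29, 8.07 and 11.7. G0s2 was thus highest in replicate 3, at 1.85 times replicate 1. Pltp overlaps the abundant lysosomal gene Ctsa (397 FPKM in BMDM), and the strand setting of the counting is not given in the sources used here. Galm, an enzyme of galactose metabolism, had 12.6, 13.8 and 13.8 FPKM, and Lipo3, a member of the acid lipase family, had 5.35, 5.08 and 5.41. Galm and Lipo3 kept 0.61 to 0.71 and 0.51 to 0.79 FPKM in the CAR libraries.

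Genes of microbial recognition, the cell surface and adhesion made up a second group. Ptx3, a secreted pentraxin that binds microbes and complement, had 14.3, 15.2 and 16.7 FPKM in BMDM and 2 counts in all in the 12 other libraries. Ly86, also known as MD-1, the partner of the receptor RP105, had 6.47, 8.43 and 8.44 FPKM and none elsewhere. Ms4a4a, a tetraspan protein of macrophages, had 8.36, 11.6 and 12.2 FPKM in BMDM, while its relatives were present in CAR macrophages too: Ms4a4c had 1.60 ± 0.58 FPKM in BMDM and 1.18 ± 0.03 in CAR macrophages, and Ms4a4b had 0.37 ± 0.17 and 0.76 ± 0.11 (SD, n = 3). Jaml, a junctional adhesion protein, had 10.8, 14.3 and 13.01 FPKM.

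Aif1, the calcium-binding protein also called IBA1 and a common stain for macrophages and microglia, had 15.9, 16.4 and 18.7 FPKM in BMDM and at most 0.53 in any other library. The 3 other macrophage groups thus lacked most of the message of a gene used to mark macrophages. Tifab, an inhibitor related to the TRAF6 adaptor TIFA, had 12.6, 14.1 and 15.4 FPKM. Adam19, a membrane metalloprotease, had 12.98, 10.81 and 10.72, and Eng, endoglin, a coreceptor for TGF-β family ligands, had 10.1, 8.53 and 8.62. Eng overlaps Fpgs, which had 2.11 FPKM in BMDM and up to 22.9 in another library, while Eng stayed at 0.74 or less outside BMDM.

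Several of the genes are best known outside macrophages. Cck, the precursor of the gut and brain peptide cholecystokinin, was the most abundant of all, at 184, 197 and 208 FPKM, and its summed count of 4360 in BMDM stood against 0 in each other group. Against the limit of 3 counts over a group's 3 libraries, this is at least 1575-fold above CAR macrophages. Kcnn3, a calcium-activated potassium channel, had 10.7, 13.5 and 12.3 FPKM in BMDM. Tmeff1, a membrane protein with follistatin domains, had 5.79, 5.24 and 5.05, and Serpine2, a serine protease inhibitor also called nexin-1, had 8.10, 7.32 and 7.87. The 4 genes differed in their remainder: Cck had none, and Tmeff1 reached 0.72 FPKM in CAR macrophages.

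The rest were Rtl8b, a retrotransposon-derived gene of the X chromosome (10.2, 11.7 and 13.3 FPKM in BMDM), Dapk1, a death-associated kinase (7.86, 9.48 and 9.12), Jazf1, a zinc finger protein (8.53, 8.28 and 8.63), Apol7c, an apolipoprotein L family member (9.69, 7.40 and 7.40), Fam169b (7.10, 8.61 and 8.78), Zc3h12d, a relative of the RNase Regnase-1 (7.15, 6.17 and 6.80), and Rapgef5, an exchange factor for Rap GTPases (6.70, 5.74 and 5.74). The Apol7 genes divided between the groups. Apol7a had 1.97 ± 0.26 FPKM in CAR macrophages and was listed at 0 in BMDM, while Apol7c had 0.32, 0.09 and 0.16 FPKM in the CAR libraries. Such related genes can share reads, so the split between them is uncertain. This limit also holds for Rtl8b and its relative Rtl8a. In CAR replicate 3, where Rtl8a reached 1 FPKM, Rtl8b had 0.25, against 0.76 and 0.73 in CAR replicates 1 and 2.

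At the minimum of 5 FPKM, the lowest BMDM values inside were 5.05 for Tmeff1, 5.08 for Lipo3, 5.20 for Shisa8 and 5.74 for Rapgef5. Just outside stood P2ry13 at 4.82, Ch25h at 4.57, Mrc1 at 4.56 and Gpx3 at 4.53. At the ceiling, the highest values inside were 0.79 for Lipo3, 0.79 for Sorl1, 0.76 for Rtl8b and 0.74 for Eng. Just outside stood Ceacam10 at 1, Rtl8a at 1, Serpinb6b at 1.04 and Cryzl2 at 1.13. Genes on either side of each threshold thus had nearly the same values.

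Some of the genes are known from B cells, although the list of B and plasma cell markers used here holds 0 of the 32. Spib, an ETS factor of B cells and plasmacytoid dendritic cells, had 11.9, 6.74 and 10.1 FPKM in BMDM replicates 1, 2 and 3. Ly6d, a surface marker of early B lineage and plasmacytoid cells, had 17.8, 7.64 and 12.2. Tnfrsf13c, the BAFF receptor of B cells, had 10.8, 8.18 and 11.4, and its neighbour Shisa8 had 8.09, 5.20 and 6.64. Replicate 2 was the lowest for all 4 genes, and replicate 1 the highest for all but Tnfrsf13c. Among the 32, 7 had the order replicate 1 over 3 over 2: Ly6d, Spib and Shisa8, and also Smpdl3a, Eng, Serpine2 and Zc3h12d.

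This spread was wider than that of most genes. The coefficient of variation over the 3 BMDM libraries was 40.7% for Ly6d, 31.5% for G0s2, 27.3% for Spib and 21.8% for Shisa8. The median was 9.66% over the 32 genes and 6.57% over the 7891 genes with a mean of at least 5 FPKM in BMDM. A coefficient over 20% was found for 4 of 32 (12.5%) and for 5.35% of the 7891. Replicate 1 was at least 1.5 times replicate 2 for Ly6d, Spib and Shisa8, or 9.38% of the 32, and for 28 of the 7891 (0.355%).

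A list of B and plasma cell markers moved in the same way. Of its 16 genes in the table, 11 were ordered replicate 1 over 3 over 2, an order that 11.01% of the 7891 genes had. The sets differ in level, since only 10 of the 16 reached a mean of 1 FPKM in BMDM. The order was also found for 10 of 41 resident and M-CSF macrophage, 5 of 19 T and NK and 5 of 21 fibroblast and stroma genes. It was found for 1 of 20 neutrophil and granule and 0 of 24 interferon-stimulated genes. Cd79a, a signalling chain of the B cell receptor, had 22.93, 11.01 and 17.80 FPKM in BMDM replicates 1, 2 and 3 and at most 0.25 elsewhere, and Mzb1, a chaperone of antibody-secreting cells, had 9.44, 3.96 and 6.14. Cd79a and Cd79b met the same thresholds as the 32 genes and were left out by their symbols. In all, 7 of the 16 had a mean of at least 1 FPKM in BMDM and stayed under 1 elsewhere, of which 6 are reported here: Cd79a, Cd79b, Mzb1, Ms4a1, Pax5 and Vpreb3.

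The summed level of the 16 genes ran from 205 to 227 FPKM in BMDM, 117 to 121 in CAR, 219 to 224 in control-CAR, 205 to 234 in Hoxb8 macrophages, with 74.9 to 77.3 in progenitors. Most of it came from Xbp1 (113 FPKM in BMDM) and Blnk (49.8), which were present in every group. No B cell marker of the list was at 0 in all 3 BMDM libraries. The part of B cells in the levels of Spib, Ly6d, Tnfrsf13c and Shisa8 was not tested. The complement genes C1qa, C1qb and C1qc, also left out by symbol, had the order of Ly6d and Spib too: C1qb, the most abundant, had 79.8, 53.3 and 56.1 FPKM. The order is therefore not restricted to B cell genes.

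**Figure D3:**
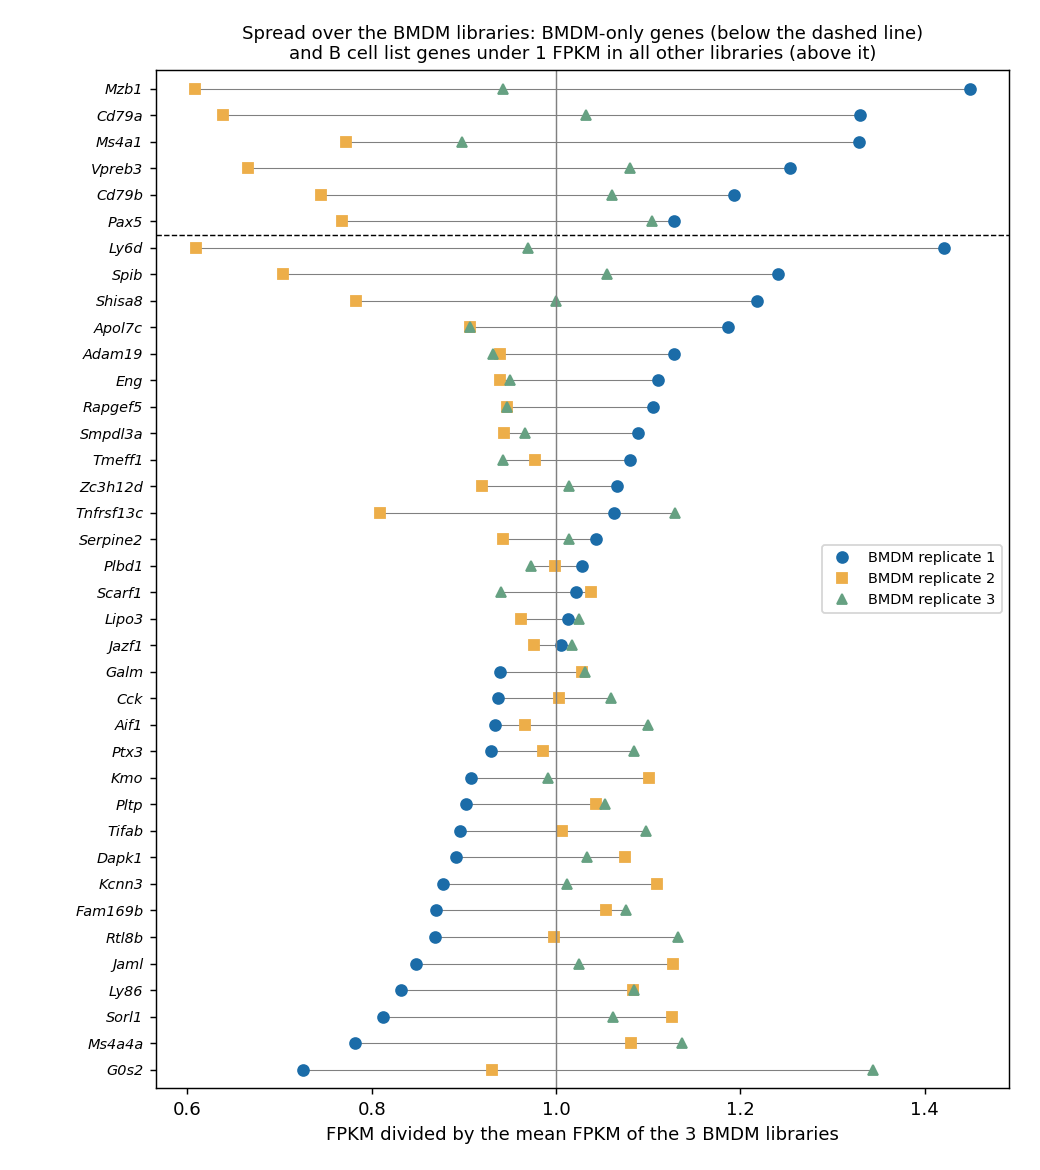
Each point is the FPKM of a gene in 1 BMDM library divided by its mean over the 3 BMDM libraries, for the 32 BMDM-only genes (below the dashed line, ordered by replicate 1) and 6 of the 7 B cell list genes under 1 FPKM in all other libraries (above it). Replicate 2 is lowest and replicate 1 highest for these 6 list genes, and 7 of the 32 have the same order, among them Ly6d, Spib and Shisa8 with the widest gaps between those replicates.

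Other cell types were checked with lists as well. The T and NK list had 6 of 19 genes with a mean of at least 1 FPKM in BMDM, with a summed level of 107 to 135 FPKM that came mostly from Il7r (58.8) and Thy1 (50.2). Cd3e had 0.12, Cd3d 0.19 and Cd8a 0.10 FPKM, and Klrb1c was at 0. Of the dendritic cell list, 15 of 18 genes had a mean of at least 1 FPKM in BMDM, against 8 in CAR macrophages, 7 each in control-CAR and Hoxb8 macrophages and 4 in progenitor cells. Its summed level ran from 641 to 698 FPKM in BMDM and from 463 to 732 in the CAR, control-CAR and Hoxb8 macrophages. The list holds 2 of the 32 genes, Ly6d and Kmo, an enzyme of tryptophan breakdown with 6.12, 7.42 and 6.68 FPKM in BMDM. Xcr1 (0.03 FPKM) and Clec9a (0.33), which mark conventional type 1 dendritic cells, were near 0. The part of dendritic cells in the levels of Kmo and Ly6d was not tested. Of the megakaryocyte and platelet list, 10 of 12 genes had a mean of at least 1 FPKM in BMDM, with a summed level of 3532 to 3857 FPKM, mostly from Pf4 (3469), against 407 to 419 in CAR and 935 to 1070 in the control-CAR and Hoxb8 macrophages. Of the fibroblast and stroma list, 11 of 21 genes did so in BMDM, 10 in CAR macrophages and 3 in each other group, and its summed level was 109 to 134 FPKM in BMDM. All 20 genes of the neutrophil and granule list reached that mean in BMDM, with a summed level of 14702 to 21666 FPKM. That sum was 6972 to 7226 in CAR, 19829 to 20595 in control-CAR and 18090 to 20216 in Hoxb8 macrophages, and 2383 to 2450 in progenitors. In BMDM, 13 of 14 monocyte, 14 of 15 progenitor and 9 of 11 mast cell and basophil genes also reached it. The part of these cells in the levels of the 32 genes was not tested.

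The remaining genes left out by symbol included Slc1a2, a glutamate transporter, with 21.6 ± 1.47 FPKM in BMDM (SD, n = 3), and Cd200, the ligand of an inhibitory myeloid receptor, with 17.8 ± 0.99. Itga1, an integrin chain that binds collagen, had 17.6 ± 0.83, and Itgb2l, a β2-like integrin chain, had 10.3 ± 3.02. Il22, a cytokine usually made by lymphoid cells, had 7.87, 9 and 8.07 FPKM in BMDM, 0.29 to 0.33 in CAR macrophages and none elsewhere. The ETS factor genes related to Spib did not share its pattern: Spi1, which encodes PU.1, had 262 ± 9.66 FPKM in BMDM, 171 ± 9.73 in control-CAR and 100 ± 3.18 in CAR macrophages. Spic had 3.30 ± 0.84 in BMDM and 2.11 ± 0.12 in CAR macrophages.

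CAR macrophages were next compared with control-CAR macrophages, the contrast the series names as its design. The rule put a ceiling on both groups but used no difference between them. With edgeR (quasi-likelihood, p adjusted by Benjamini-Hochberg over 11793 genes), 17 of the 32 were higher in CAR macrophages and 2 were lower (19 of 32, 59.4%). Over all genes tested 78.7% were called, so the share of calls among the 32 was not above the background. As a description, the median log2 change was 2.13 over the 32 genes and 2.32 over the 25 with more than 3 counts in a group. With the 8 genes at 0 in control-CAR macrophages set to their bound, the median of these 25 was 2.20. Over all genes tested, which had no such cut on counts and no ceiling of 1 FPKM, it was 0.06. The 32 genes were all under 1 FPKM in both groups and passed the filter on low values through their BMDM levels alone. With no filter, 10620 of the 17009 genes tested were called. The same numbers of the 32 were called, 17 higher and 2 lower.

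Marker lists of other cells moved in this contrast as well. In CAR against control-CAR macrophages, 9 of 10 tested mast cell and basophil genes were higher and 0 lower, with summed levels of 3814 to 4049 FPKM in CAR and 451 to 492 in control-CAR macrophages. Of the eosinophil list, 8 of 9 were higher (892 to 935 FPKM against 150 to 237), and of the fibroblast and stroma list, 8 of 12 were higher and 3 lower (156 to 161 FPKM against 21.7 to 24.9). Of the interferon-stimulated list, 19 of 22 were higher and 2 lower. Some lists had more genes lower than higher. Of the neutrophil and granule list, 5 of 20 were higher and 12 lower (6972 to 7226 FPKM against 19829 to 20595). Of the monocyte list, 5 of 13 were higher and 7 lower. Of the B and plasma cell list, 0 of 9 were higher and 3 lower, and of the Fc gamma receptors, 1 of 9 and 6. Over all genes tested, 4946 of 11793 were higher and 4334 lower. In the CAR libraries 14740 to 14815 genes had a count, against 12947 to 13160 in the control-CAR libraries. The part of these in the levels of the 32 genes was not tested.

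Sorl1 had the smallest adjusted p. It rose from 0.07, 0.04 and 0.07 FPKM in control-CAR to 0.79, 0.71 and 0.63 in CAR macrophages, a log2 change of 3.29 ± 0.23 (SE, adjusted p = 3.14e-10). The ratio of summed counts, 403 against 32, was 9.84 per TMM-scaled total (exact 95% interval for counting error only, 6.86 to 14.6). Every CAR library lay above every control-CAR library. In either direction, these groups did not overlap for 19 of the 32 genes and for 82.1% of all genes tested.

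Eng had 0.74, 0.62 and 0.60 FPKM in CAR macrophages and no counts in control-CAR macrophages. Against the limit of 3 counts over the group, its 112 counts were at least 29.2-fold higher (adjusted p = 2.45e-08). Galm was at least 16.4-fold higher (63 counts against 0, adjusted p = 3.16e-07), and Lipo3 at least 23.4-fold (90 against 0, adjusted p = 4.44e-07). The control-CAR macrophages thus had no read of 3 genes that each CAR library contained.

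Tmeff1 was at least 16.7-fold higher (64 counts against 0, adjusted p = 6.72e-06), Fam169b at least 13.03-fold and Plbd1 at least 7.29-fold. Adam19 rose from 0.08, 0.13 and 0.08 FPKM to 0.53, 0.46 and 0.54, a log2 change of 2.33 ± 0.28 (SE, adjusted p = 1.13e-06). Zc3h12d, Jazf1, Rtl8b, Dapk1, Smpdl3a and Serpine2 also rose, with ratios of summed counts from 2.44 for Serpine2 to 10.2 for Smpdl3a, whose interval of 1.53 to 432 rests on 13 counts against 1. Apol7c was at least 4.69-fold higher (18 counts against 0).

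Tifab and Rapgef5 went the other way. Tifab had 0.33, 0.20 and 0.27 FPKM in control-CAR and 0.07, 0.07 and 0.09 in CAR macrophages, where it fell by 2.18 ± 0.37 on the log2 scale (SE, adjusted p = 3.05e-05). Rapgef5 fell by 3.21 ± 0.75 on the same scale (SE, adjusted p = 0.000968), from 17 counts to 2. For both genes the CAR and control-CAR libraries did not overlap, which held for 82.1% of all genes tested.

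The calls with the largest adjusted p depended on single libraries. Jaml (5 counts against 0, adjusted p = 0.031) lost its call without CAR replicate 2 or 3 or without any 1 of the control-CAR libraries. Kcnn3 (56 counts against 23, adjusted p = 0.039) lost it without CAR replicate 2 or 3 or control-CAR replicate 2 or 3. Serpine2 did so without CAR replicate 2 or control-CAR replicate 3, and Smpdl3a without control-CAR replicate 2 or 3. Dapk1 and Rapgef5, at under 0.1 FPKM, lost theirs, with Jaml and Kcnn3, in the limma fit on log2(FPKM + 1), which compresses low values. Aif1, with 0.18, 0.26 and 0.53 FPKM in CAR and 0.00, 0.18 and 0.09 in control-CAR macrophages, did not pass (adjusted p = 0.096). A fit on library totals alone in place of TMM called it and moved the median of all genes by 0.31, and it was also called without control-CAR replicate 2 and in both limma fits on log2 FPKM. Pltp was called only without CAR replicate 2.

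**Figure D4:**
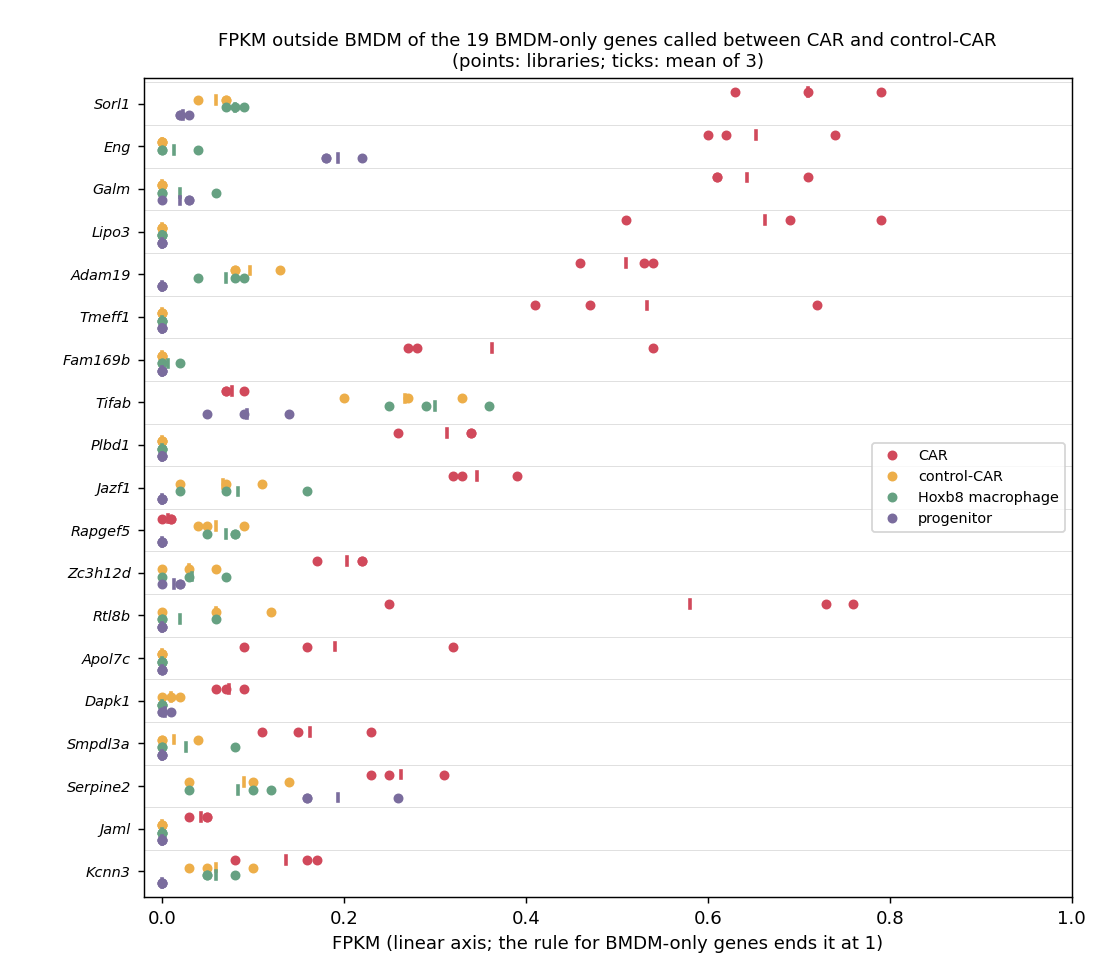
Points give the FPKM (linear axis) in each CAR, control-CAR, Hoxb8 macrophage and progenitor library of the 19 BMDM-only genes called between CAR and control-CAR macrophages, ordered by adjusted p from the top, with ticks at the mean of 3. The CAR points lie to the right of the control-CAR points for 16 genes, overlap them for Kcnn3 and lie to the left for Tifab and Rapgef5. Counting Tnfrsf13c, which was not called, 19 of the 32 had no overlap, against 82.1% of all genes tested.

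Hoxb8 macrophages were compared with progenitor cells to follow the same genes from the progenitor to the macrophage state. Of the 32 genes, 8 were higher in Hoxb8 macrophages and 2 lower by the same test (10 of 32, 31.3%), against 84.3% of all genes tested. All were under 1 FPKM in both groups and passed the filter through BMDM alone. With no filter the same numbers of the 32 were called, beside 10916 of the 17009 genes tested. Only 15 of the 32 had more than 3 counts in either group. Tifab rose from 0.14, 0.05 and 0.09 FPKM to 0.29, 0.36 and 0.25, a log2 change of 2.69 ± 0.33 (SE, adjusted p = 4.92e-07). Kcnn3 was at least 14.1-fold higher in Hoxb8 macrophages (24 counts against 0), Adam19 at least 12.4-fold (21 against 0) and Rapgef5 at least 10.6-fold (18 against 0), each with adjusted p between 1.83e-05 and 2.24e-05. Sorl1 rose by 2.76 ± 0.47 on the log2 scale (SE, adjusted p = 2.32e-05). The group of rising genes thus included Tifab and Rapgef5, which were lower in CAR than in control-CAR macrophages.

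Jazf1 and Pltp were each at least 6.48-fold higher in Hoxb8 macrophages (11 counts against 0), and Aif1 rose by 2.01 ± 0.66 on the log2 scale (SE, adjusted p = 0.00918), a call lost when library totals replaced TMM, which moved the median of all genes by 0.74. Eng, which also marks early blood progenitors, fell by 3.002 ± 0.703 (SE, adjusted p = 0.000847), from 0.18, 0.18 and 0.22 FPKM in progenitor cells to 0.00, 0.04 and 0.00. Tnfrsf13c had 6 counts in progenitor cells and 0 in Hoxb8 macrophages (adjusted p = 0.036), a call lost without progenitor replicate 1 or 3, without any 1 of the Hoxb8 macrophage libraries, with DESeq2, with only these groups in the fit and in limma on log2(FPKM + 1). Of the 10 genes, Eng and Tifab kept their call under every alternative run, and Sorl1, Kcnn3, Adam19, Rapgef5, Jazf1 and Pltp lost it only in the limma fit on log2(FPKM + 1).

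Between control-CAR and Hoxb8 macrophages edgeR called 0 of the 32 genes, against 2.62% of all genes tested. At an unadjusted p under 0.05 there were 2, Aif1 and Dapk1, and DESeq2 called 0. The share of all genes at that unadjusted threshold was not counted. Dapk1 had 3 counts in control-CAR and 0 in Hoxb8 macrophages, which does not exceed the limit of 3 counts over a group. Aif1 had 0.28, 0.35 and 0.37 FPKM in Hoxb8 macrophages, above its control-CAR libraries, with 10 counts against 3. Libraries of these 2 groups did not overlap for 21.9% of all genes tested. This comparison shares the control-CAR libraries with the one above, and 19 of the 32 genes had 3 counts or fewer in both groups, so that a difference in those was not detectable at this depth. For the contrasts the rule used, no test is read from the 32 genes: BMDM against CAR, control-CAR, Hoxb8 macrophages and progenitor cells called 76.9%, 69.3%, 70.3% and 87.3% of all genes tested.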

How the data were processed

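RNA-seq of bulk mouse cells gave 15 libraries in 5 groups of 3, held in 1 table of 17030 genes. The submitters' processing notes name HISAT2, Bowtie2, RSEM 1.3.1, DESeq2 1.4.5 and the build GRCm38.p6, with no order, while annotation and strandedness were not given in the sources used here. Per the file headers, the authors computed the FPKM values and the TPM values. The estimated counts, deposited as read counts, were not normalised and were 94.4% to 96.0% whole numbers per library.

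The members and gene lists were chosen with earlier results of these data known. Rounded counts were tested with edgeR 4.0.16 (quasi-likelihood, TMM, 1 mean per group, all 15 libraries, Benjamini-Hochberg, adjusted p under 0.05) over 11793 genes with FPKM of at least 1 in at least 3 libraries. The scripts were tested on simulated data. A fold against a group at 0 was set against 3 counts over its 3 libraries, a limit that covers counting error only, as do the intervals. Named genes were the 25 with the highest mean BMDM FPKM, those in a list, up to 6 called per contrast and 4 on each side of each threshold. Alternatives used DESeq2 1.42.0, limma 3.58.1 on log2(FPKM + 1) or log2(FPKM + 0.1), other scalings, filters, thresholds and single libraries left out. Promoter sequences came from RefSeq. The 15 columns of averages were not used, and 25 symbols that had been turned into dates were restored from gene identifiers. Some genes are not reported here.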

Additional observations from a re-analysis of the deposited data

How the results depend on the processing

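The number of BMDM-only genes depended on the thresholds: it was 14 with a minimum of 10 FPKM, 102 with a minimum of 2, 65 with a ceiling of 2 and 50 with TPM in place of FPKM, of which 26 were among the 32. A ceiling of 0.5 gave 22, FPKM divided by TMM factors gave 36, no symbol left out gave 43, and leaving out each library in turn gave 32 to 38. The summed BMDM level was 92.3 times the CAR level in FPKM and 87.2 times in TPM. Members called between CAR and control-CAR macrophages numbered 15 to 21 over all alternatives and 15 to 19 with single libraries left out. Between Hoxb8 macrophages and progenitors, limma on log2(FPKM + 1) called 4 and the other alternatives 9 to 13. Between control-CAR and Hoxb8 macrophages limma on log2(FPKM + 0.1) called 1 (Aif1). No named change reversed, and 13 of the 19 genes called between CAR and control-CAR macrophages kept their call under every alternative. No pairing by replicate number was seen, as same-numbered deviations correlated from -0.06 to 0.03, which does not show that the samples were unpaired. With the replicate block 19, 10 and 0 genes were called, as without it. Counts of 3 or fewer per group limit what could be seen outside BMDM.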
